A study of Mus musculus with 13 samples.

Results

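Lysosomes are the compartments in which a cell breaks down proteins, lipids and sugars, and 9 genes of this compartment were followed through the spontaneous immortalization of mouse embryonic fibroblasts (MEFs). They encode a pair of glycosidases (*Glb1* and *Hexa*), 4 cathepsin proteases (*Ctsb*, *Ctsd*, *Ctsl* and *Ctsz*), a pair of membrane glycoproteins (*Lamp1* and *Lamp2*) and the transcription factor *Tfeb*. The genes were chosen by symbol, and all 9 were found among the 55487 genes of both deposited count tables. Levels are given as CPM, that is counts scaled to a common library size after TMM (trimmed mean of M values) normalization within each genotype.

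Poly-A RNA of 13 cultures was sequenced. Wild-type (WT) primary MEFs were represented by clones 3, 4 and 5, which the study's methods describe as coming from different embryos, and WT immortalized MEFs by the line that grew out of each of these clones. Primary MEFs labelled Prkd3-/- were represented by clones 13, 14 and 15, and immortalized MEFs of the same label by lines 13, 13a, 14 and 15, of which 13 and 13a carry the same clone number. All cells were cultured in medium with 10% fetal calf serum, and cultures were shifted to 20% serum once senescent, until growing colonies established a line. None of the 13 libraries is labelled senescent, so each comparison sets cells before senescence against cells that had passed it. The targeted gene *Prkd3* was measured between 35.0 and 62.6 CPM in the libraries labelled Prkd3-/- and between 66.8 and 90.5 CPM in WT, and counts per gene do not show which exons are deleted, so the genotype is used here as a label. The sources used here do not say whether the Prkd3-/- clones came from separate embryos. In both genotypes, p-values measure only the spread between these cultures. Over all tested genes, the median standard deviation of log2 CPM was 0.08 among WT primary clones and 0.26 among Prkd3-/- primary clones. Why the WT primary clones were this close was not tested.

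Lysosomal hydrolases are made as precursors, carry a mannose 6-phosphate tag that directs them to the lysosome, and work at the acid pH that the vacuolar ATPase maintains. The transcription factor TFEB, together with its relatives TFE3 and MITF, binds E-box motifs near the start of many lysosomal genes and raises their transcription when nutrients are short. The enzyme encoded by *Glb1* is the source of senescence-associated β-galactosidase activity, the stain by which senescent fibroblasts in culture are commonly recognised, and cathepsins and LAMP proteins are abundant both in fibroblasts and in macrophages.

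The E-box CACGTG, which reads the same on both strands, was searched for in the 250 bases before each RefSeq gene start (GRCm38.p6), for which 8 of the 9 genes have an entry. It was present before the RefSeq start of *Glb1*, *Ctsd*, *Ctsl* and *Lamp1*, that is 4 of 8 genes, against 6.02% of all 32851 promoters in the table. The members are counted by gene and the background by promoter, so these shares are not in like units. A gene can have several promoters, as does *Tfeb*, which has the motif in none. The RefSeq start can differ from that of the gene model used for counting. The *Ctsl* window, chr13:64370521-64370770 (minus strand), lies wholly inside the counted gene (64359337 to 64370890). Most of the *Ctsd* window lies inside the counted gene as well (142375911 to 142388038). The form TCACGTG, which contains the first motif and was searched on both strands, was present before *Glb1*, *Ctsd* and *Lamp1*, against 3.13% of all promoters. The palindrome GTCACGTGAC, which contains both, was found before none of the 8 genes and in 0.240% of all promoters, which says only that these letters are not in those windows. The 3 promoters with the form TCACGTG are shown because they belong to genes of a glycosidase, a protease and a membrane protein of which *Glb1* varied least and *Ctsd* most among the WT lines. They lie on chromosome 9 at chr9:114400828-114401077 (*Glb1*, plus strand), chromosome 7 at chr7:142387828-142388077 (*Ctsd*, minus strand) and chromosome 8 at chr8:13158911-13159160 (*Lamp1*, plus strand), are written 5′ to 3′ along the gene, and have each CACGTG in capitals.
Glb1: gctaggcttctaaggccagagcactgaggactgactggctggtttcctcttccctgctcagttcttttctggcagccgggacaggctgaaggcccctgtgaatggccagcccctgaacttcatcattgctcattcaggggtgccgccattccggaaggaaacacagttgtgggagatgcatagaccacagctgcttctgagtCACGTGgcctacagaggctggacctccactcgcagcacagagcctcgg
Ctsd: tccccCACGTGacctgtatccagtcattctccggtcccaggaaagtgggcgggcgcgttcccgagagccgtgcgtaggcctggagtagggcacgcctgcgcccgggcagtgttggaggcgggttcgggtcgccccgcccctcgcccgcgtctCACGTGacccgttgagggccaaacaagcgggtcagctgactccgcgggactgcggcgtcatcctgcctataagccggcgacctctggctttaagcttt
Lamp1: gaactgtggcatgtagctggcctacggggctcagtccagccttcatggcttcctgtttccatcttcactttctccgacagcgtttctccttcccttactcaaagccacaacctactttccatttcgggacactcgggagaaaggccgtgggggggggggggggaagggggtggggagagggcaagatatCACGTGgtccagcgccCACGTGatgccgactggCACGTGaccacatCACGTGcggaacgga
The single motif of *Glb1* begins 48 bases before the start. *Ctsd* has motifs beginning 245 and 98 bases before the RefSeq start, the latter inside the counted gene. *Lamp1* has 4, beginning 61, 45, 28 and 15 bases before its start. A match describes the letters and does not show that a factor binds there.

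Each WT library held between 55436367 and 90654323 counts and each library labelled Prkd3-/- between 35273408 and 100441756, so that 3 counts correspond to between 0.0299 and 0.0851 CPM. Each of the 9 genes was far above this floor in each of the 13 libraries. Summed over 13 fibroblast markers, among them collagen and vimentin genes, the libraries held between 32574 and 99059 CPM, so the markers of the labelled cell type were present, although *Dcn* ranged from 0.637 to 441 CPM among the WT lines and from 0.385 to 212 CPM among the Prkd3-/- lines. Summed over 20 macrophage markers, among them *Csf1r*, *C1qa* and *Mpeg1*, the WT primary libraries held between 1851 and 1924 CPM and the WT immortalized libraries 71.4 to 173 CPM. The same sum was 194, 2720 and 493 CPM in Prkd3-/- primary clones 13, 14 and 15, and 22.2, 432, 20.6 and 27.6 CPM in lines 13, 13a, 14 and 15, with 10 of the 20 markers at 0 counts in line 13. Over 6 endothelial markers the sum was 11.2 to 15.8 CPM in WT primary libraries and 0.358 to 1.94 CPM in WT lines, and 15.8 to 30.2 and 1.56 to 18.3 CPM in Prkd3-/- primary clones and lines. Over 6 epithelial markers it was 10.3 to 14.8, 0.686 to 36.6, 9.10 to 64.6 and 2.29 to 131 CPM in these groups. The highest epithelial sums among the lines were those of WT line 3 (36.6 CPM) and Prkd3-/- line 13 (131 CPM). In these lines *Cdh1* was at 0.0622 and 0 CPM and *Krt18* at 0.0155 and 0.847 CPM. The larger part of each sum thus came from other markers of the list. WT line 3 and line 13 also held the least *Dcn* of their group, at 0.637 and 0.385 CPM. The sum of the 13 fibroblast markers was 92219 CPM in WT line 3, above the WT primary clones (58932 to 61049 CPM). In line 13 it was 32574 CPM, the lowest of all libraries. Line 15 held 0.721 CPM of *Dcn* with an epithelial sum of 2.29 CPM. Primary clone 14 and line 13a stand apart in their macrophage markers from the other Prkd3-/- libraries, and the Log2FC of each member without them is given beside its value. In RNA of whole cultures, fewer cells of a type and less RNA per cell cannot be told apart.

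**Figure D1:**
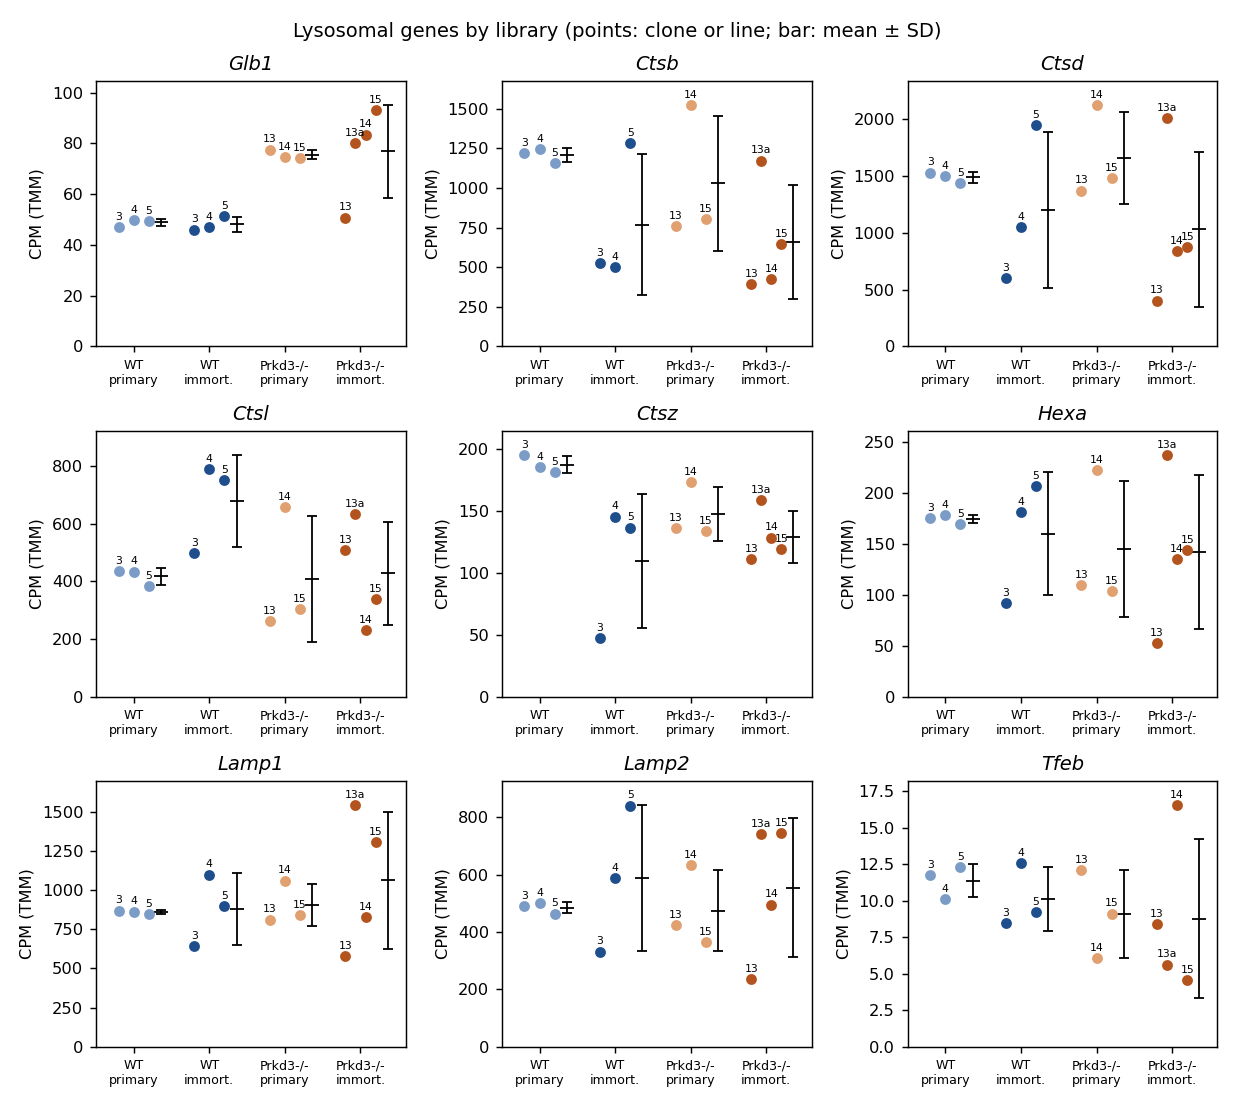
Level of each lysosomal gene in each library, in CPM (TMM scaled within a genotype), with 1 panel per gene and an axis from 0. Points are libraries, numbered by clone or line, grouped as WT primary, WT immortalized, Prkd3-/- primary and Prkd3-/- immortalized, and the bar beside each group is its mean ± SD (n = 3, 3, 3 and 4). In WT the primary points lie close together and the lines lie farther apart in each panel, least so for *Glb1*.

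*Glb1* (ENSMUSG00000045594), on chromosome 9 from position 114401076 to 114474898 of GRCm38, encodes lysosomal β-galactosidase, which removes terminal galactose from glycolipids and glycoproteins. It was measured at 47.2, 49.8 and 49.5 CPM in WT primary clones 3, 4 and 5 and at 46.1, 46.9 and 51.4 CPM in lines 3, 4 and 5. The groups overlap, and the mean was 48.8 ± 1.46 CPM before and 48.1 ± 2.87 CPM after immortalization (SD, n = 3 each). The Log2FC was −0.02 with a standard error of 0.08 (adjusted p = 0.914, edgeR's quasi-likelihood test with Benjamini-Hochberg adjustment), and the 95% interval of the ratio of lines to primary MEFs ran from 0.858 to 1.13. This was the narrowest interval among the 9 genes. In the Prkd3-/- primary clones 13, 14 and 15 it was 77.5, 74.7 and 74.3 CPM, and in lines 13, 13a, 14 and 15 it was 50.8, 80.0, 83.4 and 93.0 CPM. Line 13 was below every primary clone and the other lines above, with a Log2FC of 0.03 (standard error 0.23, adjusted p = 0.991 by the same edgeR test) and an interval of the ratio from 0.707 to 1.46. That Log2FC was −0.01 without primary clone 14 and line 13a. The Prkd3-/- values are higher than the WT values except in line 13, but each genotype comes from its own table, so genotype and table cannot be told apart and the levels were not tested against each other.

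*Hexa* (chromosome 9, 59539540 to 59565109), the α subunit of the β-hexosaminidase that degrades GM2 ganglioside, varied little among the WT primary clones and more among the WT lines. WT primary clones held 176, 178 and 169.7 CPM, whereas lines 3, 4 and 5 held 92.0, 181 and 207 CPM. Line 3 alone was below the primary range, and the Log2FC of −0.12 (standard error 0.30) did not pass the test (adjusted p = 0.856, edgeR). Among the Prkd3-/- cultures, *Hexa* was at 109, 222 and 104 CPM in primary clones 13, 14 and 15 and at 52.4, 237, 135 and 144 CPM in lines 13, 13a, 14 and 15. The values of clone 14 and line 13a were more than any other of their state, and the Log2FC was −0.03 with them (standard error 0.50, adjusted p = 0.996, edgeR) and 0.05 without them.

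Among the proteases, *Ctsl* (chromosome 13, 64359337 to 64370890), a cysteine protease that is also secreted by fibroblasts, had the smallest adjusted p of the 9 genes in WT. It was at 435, 434 and 384 CPM in primary clones 3, 4 and 5 and at 498, 789 and 752 CPM in the lines. Each line exceeded each primary clone, and the mean went from 418 ± 29.1 to 679.5 ± 158 CPM (SD, n = 3 each), a Log2FC of 0.70 with a standard error of 0.20 and a ratio of 1.63 (95% interval 1.15 to 2.30). Its adjusted p was 0.134 in edgeR and 0.0273 in DESeq2, so it did not pass the threshold of 0.01 by either tool. Over 15 alternative fits it ranged from 0.00824, without line 3 and with a |Log2FC| under 1, to 0.639 in a joint fit of all libraries. In the other genotype *Ctsl* was at 262, 658 and 304 CPM in primary clones 13, 14 and 15 and at 509, 633, 232 and 338 CPM in lines 13, 13a, 14 and 15. These groups overlap fully, and the Log2FC was 0.07 (standard error 0.45, adjusted p = 0.987, edgeR) and 0.34 without clone 14 and line 13a.

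*Ctsb* (chromosome 14, 63122462 to 63145923), the cysteine protease cathepsin B, was at 1223, 1246 and 1157 CPM in WT primary clones 3, 4 and 5. Lines 3 and 4 were at 525 and 502 CPM, and line 5 was at 1281 CPM, above every primary clone. The Log2FC over all lines was −0.65 (standard error 0.40, adjusted p = 0.431, edgeR). Without line 5 it was −1.23 (standard error 0.10, adjusted p = 0.00402, edgeR), which passes both thresholds and was the only call of any of the 9 genes when a single library was left out. Its adjusted p over 15 alternative fits ranged from that value to 0.771 in the joint fit. With the Prkd3-/- label, *Ctsb* was at 761, 1523 and 804 CPM in primary clones 13, 14 and 15 and at 396, 1173, 426 and 648 CPM in lines 13, 13a, 14 and 15. Lines 13, 14 and 15 were below every primary clone and line 13a was above clones 13 and 15, and the Log2FC was −0.64 (standard error 0.45, adjusted p = 0.843, edgeR). It was −0.68 without clone 14 and line 13a.

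*Ctsd* (chromosome 7, 142375911 to 142388038), the main aspartic protease of the lysosome, had the most reads of the 9 genes in WT primary MEFs, at 1526, 1497 and 1434 CPM in clones 3, 4 and 5. The lines stood at 603, 1046 and 1944 CPM, so that 2 were below and 1 above the primary range. The Log2FC was −0.31 (standard error 0.42, adjusted p = 0.734, edgeR). The Prkd3-/- primary clones 13, 14 and 15 held 1369, 2118 and 1477 CPM and lines 13, 13a, 14 and 15 held 402, 2002, 836 and 871 CPM. Again 3 lines were below every primary clone and line 13a was within their range, with a Log2FC of −0.69 (standard error 0.50, adjusted p = 0.844, edgeR) that was −1.02 without clone 14 and line 13a (adjusted p = 0.819, edgeR). Of the exon bases of *Ctsd*, 34.4% are shared with the overlapping gene model *Gm49369*, and read pairs there were counted for both. *Gm49369* held between 243 (line 13) and 1220 CPM (primary clone 14) across the libraries. The shared part was 26.9% for *Ctsl*, whose overlapping models had at most 2.48 CPM, and 12.8% for *Ctsb*, where the neighbour *Fdft1* held between 65.6 and 183 CPM.

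*Ctsz* (chromosome 2, 174427493 to 174439039), the carboxypeptidase cathepsin Z, was at 195, 185 and 182 CPM in WT primary clones 3, 4 and 5 and at 47.4, 145 and 136 CPM in the lines. Each line was below each primary clone, but line 3 lay far below the other two, and the Log2FC of −0.77 (standard error 0.41) did not pass the test (adjusted p = 0.375, edgeR). Prkd3-/- primary clones 13, 14 and 15 held 136, 173 and 133 CPM and lines 13, 13a, 14 and 15 held 111, 159, 128 and 119 CPM. These groups overlap, with a Log2FC of −0.19 (standard error 0.19, adjusted p = 0.877, edgeR), or −0.18 without clone 14 and line 13a.

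The membrane glycoproteins LAMP1 and LAMP2 line the inner face of the lysosomal membrane, and an isoform of LAMP2 serves in chaperone-mediated autophagy, which counts per gene cannot resolve. *Lamp1* (chromosome 8, 13159161 to 13175338) was at 869, 863 and 846 CPM in WT primary clones 3, 4 and 5 and at 642, 1099 and 899 CPM in the lines, on both sides of the primary range. Its Log2FC was 0.03 (standard error 0.22, adjusted p = 0.951, edgeR). The sign of that value depends on the scaling: with library size alone, which shifts the Log2FC of all WT genes by a median of −0.13, it was −0.10. *Lamp2* (chromosome X, 38401357 to 38456454) was at 489, 500.2 and 464 CPM in WT primary clones and at 332, 588 and 840.1 CPM in lines 3, 4 and 5, with a Log2FC of 0.28 (standard error 0.33, adjusted p = 0.699, edgeR). For both genes line 3 was below and line 4 above every primary clone.

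In Prkd3-/- MEFs, *Lamp1* was at 812, 1061 and 842 CPM in primary clones 13, 14 and 15 and at 578, 1542, 829.7 and 1305 CPM in lines 13, 13a, 14 and 15. *Lamp2* was at 425, 633 and 364 CPM in those clones and at 235, 740.0, 495 and 746 CPM in those lines. Line 13 had the least and lines 13a and 15 the most of both transcripts. The Log2FC was 0.23 for *Lamp1* (standard error 0.35) and 0.22 for *Lamp2* (standard error 0.42), with adjusted p-values of 0.912 and 0.932 by edgeR. Without clone 14 and line 13a these values were 0.12 and 0.31.

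*Tfeb* (chromosome 17, 47737030 to 47792419) itself was expressed at a low level, at 11.7, 10.1 and 12.3 CPM in WT primary clones 3, 4 and 5 and at 8.47, 12.6 and 9.24 CPM in the lines. The groups overlap, with a Log2FC of −0.17 (standard error 0.18, adjusted p = 0.663, edgeR). Of the Prkd3-/- cultures, it was at 12.1, 6.08 and 9.12 CPM in primary clones 13, 14 and 15 and at 8.41, 5.62, 16.5 and 4.56 CPM in lines 13, 13a, 14 and 15, with a Log2FC of −0.05 (standard error 0.49, adjusted p = 0.992, edgeR), or −0.11 without clone 14 and line 13a. Clone 14, which had the most of 7 other members among the primary clones, had the least *Tfeb*.

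Considered together, 0 of the 9 genes were called in WT at an adjusted p under 0.01 and a |Log2FC| of at least 1, against 1.82% of the 19836 genes tested (edgeR). Of the 9, *Ctsl* alone had an unadjusted p under 0.05, which 8.26% of genes reached as higher and 11.4% as lower. DESeq2 called 0 of 9, against 5.94% of the genes it tested, with *Ctsl* alone at an adjusted p under 0.05, as were 10.8% of genes. The Log2FC was negative for 6 and positive for 3, with a median of −0.12 against 0.04 over all tested genes. For *Ctsl* and *Ctsz*, that is 2 of 9, the WT groups did not overlap, and this was so for 31.3% of all tested genes. For Prkd3-/- MEFs, 0 of 9 were called, against 0% of 20298 genes, and 0 of 9 had an unadjusted p under 0.05, which 4.34% of genes reached as lower and 2.22% as higher. DESeq2 called 0 of the 9 there and 0.781% of all genes. None of the 9 Prkd3-/- comparisons was free of overlap, against 9.48% of genes, and the median Log2FC was −0.03 against 0.07 over all tested genes.

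**Figure D2:**
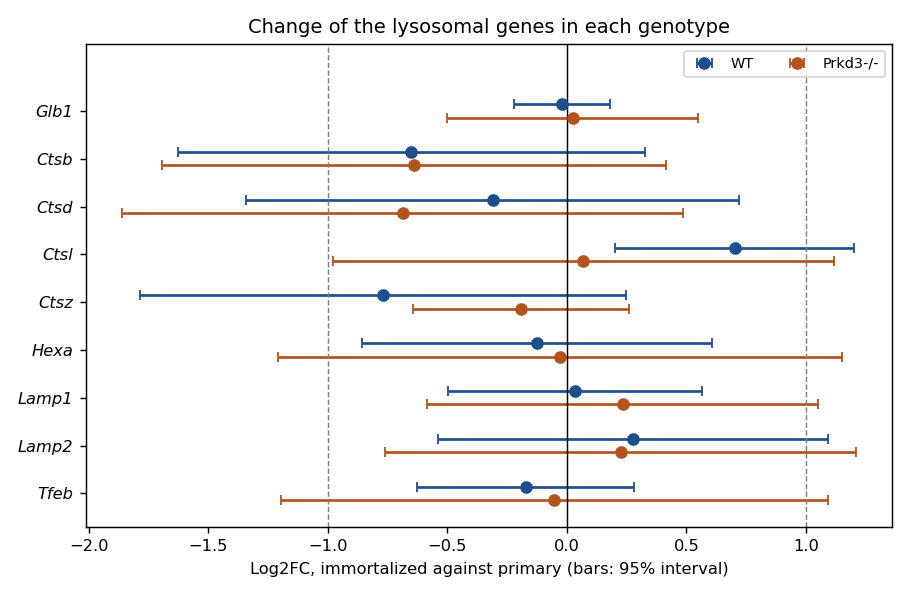
Log2FC of each gene, immortalized against primary, in WT (blue, 3 against 3 libraries) and Prkd3-/- MEFs (brown, 4 against 3), with bars for the 95% interval from edgeR and dashed lines at a |Log2FC| of 1. The interval of *Ctsl* in WT, from 0.20 to 1.20, is the only interval that does not contain 0.

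The 95% intervals show how much room these comparisons leave. In WT, they stayed within a |Log2FC| of 1 for *Glb1*, *Hexa*, *Lamp1* and *Tfeb*, while *Ctsb* (−1.63 to 0.32), *Ctsd* (−1.34 to 0.72), *Ctsz* (−1.79 to 0.25) and *Lamp2* (−0.54 to 1.09) reach beyond it, as does *Ctsl* (0.20 to 1.20). In Prkd3-/- MEFs only *Glb1* (−0.50 to 0.55) and *Ctsz* (−0.64 to 0.26) stayed within that range. Whether the change differed between the genotypes was tested with an interaction term in a joint fit of the 13 libraries. A difference was called for 0 of 9 genes at an adjusted p under 0.05, as for 0% of the 21197 genes tested (edgeR, 3.97% at an unadjusted p under 0.05). The differences of the Log2FC, Prkd3-/- minus WT, ran from −0.62 for *Ctsl* (standard error 0.55) to 0.59 for *Ctsz* (standard error 0.45).

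Most members varied more among the lines than among the primary clones of a genotype. The standard deviation of log2 CPM in WT primary MEFs lay between 0.02 (*Lamp1*) and 0.15 (*Tfeb*), around the median of 0.08 over all tested genes. In the WT lines it was 0.91 for *Ctsz*, 0.84 for *Ctsd* and 0.76 for *Ctsb*, against a median of 0.33 over all tested genes. It was 0.68 for *Lamp2*, 0.63 for *Hexa*, 0.39 for *Lamp1* and 0.37 for *Ctsl*, whereas *Tfeb* (0.30) and *Glb1* (0.08) were below that median. The highest line held 3.22 times the *Ctsd* and 3.07 times the *Ctsz* of the lowest, but 1.12 times the *Glb1*. Line 3 had the least of 8 of the 9 transcripts, all but *Ctsb*, where 36.5% of all tested genes had their lowest line there. Line 5 had the most of 5 (*Glb1*, *Ctsb*, *Ctsd*, *Hexa* and *Lamp2*), against 35.2% of genes.

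The Prkd3-/- libraries varied among themselves in both states. *Glb1* was the steadiest member in the primary clones, with a standard deviation of 0.03, smaller than that of all but 1.99% of tested genes, whereas *Ctsl* reached 0.71 and *Hexa* 0.61 against a median of 0.26. Clone 14 had the most of 7 of the 9 transcripts, where 42.2% of genes had their highest primary clone. In the lines the standard deviation was 0.95 for *Ctsd*, 0.91 for *Hexa*, 0.82 for *Tfeb*, 0.78 for *Lamp2*, 0.72 for *Ctsb* and 0.64 for both *Ctsl* and *Lamp1*, above the median of 0.55, while *Glb1* (0.39) and *Ctsz* (0.22) were below it. Among the lines, line 13 had the least of 7 transcripts (36.2% of genes) and line 13a the most of 6 (18% of genes). These lines bear the same clone number, yet line 13a held 4.98 times the *Ctsd*, 4.52 times the *Hexa*, 3.15 times the *Lamp2*, 2.97 times the *Ctsb* and 2.67 times the *Lamp1* of line 13. Their ratio was 1.58 for *Glb1*, 1.43 for *Ctsz* and 1.24 for *Ctsl*, and *Tfeb* was instead 1.50 times as high in line 13.

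**Figure D3:**
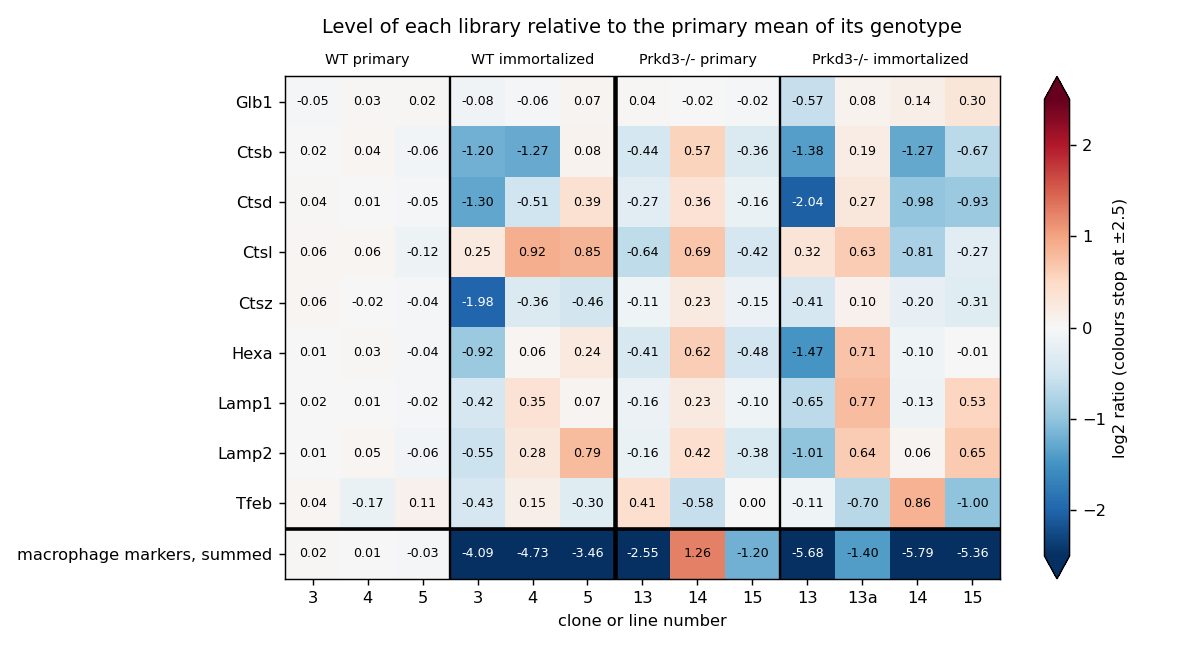
Log2 ratio of each library (columns, by clone or line number within the 4 groups) to the primary mean of its genotype, for the lysosomal genes and for the sum of 20 macrophage markers (bottom row). Red is above and blue below the primary mean, and colours stop at ±2.5. WT line 3 and Prkd3-/- line 13 are blue in most rows, while the macrophage row is negative in each of the 7 lines.

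Clone 14 and line 13a, which have the most of most lysosomal transcripts in their state, also have the most macrophage-marker counts, 2720 and 432 CPM. In WT, line 5 had more *Glb1*, *Ctsb*, *Ctsd*, *Ctsl*, *Hexa*, *Lamp1* and *Lamp2* than any primary clone. It held 173 CPM of the macrophage markers, the most among the WT lines (111 and 71.4 CPM in lines 3 and 4). The WT primary clones held 1851 CPM or more. Among the other Prkd3-/- lines, *Lamp1* was 578 CPM in line 13 and 1305 CPM in line 15 at marker sums of 22.2 and 27.6 CPM. WT line 3 and Prkd3-/- line 13, with the least of most lysosomal transcripts among the lines, held 36.6 and 131 CPM of the epithelial markers. The larger part of each sum came from markers other than *Cdh1* and *Krt18*. The part of the macrophage or epithelial markers in the spread of the lysosomal genes was not tested.

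Levels between genes were compared as FPKM, the CPM of a gene divided by the length of its exons in kilobases. In WT primary MEFs the order was *Ctsd* (632 ± 20.0), *Lamp1* (321 ± 4.37), *Ctsb* (199.7 ± 7.66), *Ctsz* (129.9 ± 4.79), *Hexa* (87.4 ± 2.15), *Ctsl* (64.4 ± 4.48), *Lamp2* (50.7 ± 1.96), *Glb1* (16.2 ± 0.487) and *Tfeb* (2.01 ± 0.198; SD, n = 3), and no neighbours overlapped. In the WT lines *Ctsl* stood in place 4 at 105 ± 24.4 FPKM, after *Ctsd*, *Lamp1* and *Ctsb*, and most neighbours overlapped. By group mean the lower end of the order was kept in each of the 4 groups, with *Glb1* above *Tfeb* and both below every other member. In the Prkd3-/- lines the range of *Glb1* (16.9 to 30.9 FPKM) overlapped those of *Lamp2* (24.6 to 78.1) and *Hexa* (26.3 to 118.7). *Glb1* was at 16.0 ± 0.953 FPKM in the WT lines, 25.1 ± 0.579 in Prkd3-/- primary clones (n = 3) and 25.5 ± 6.05 in Prkd3-/- lines (SD, n = 4).

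Ratios between members within a library do not depend on how libraries are scaled against each other. Of the 36 pairs of members, 3 had ratios that did not overlap between the states in either genotype and moved in the same direction, with *Ctsb* lower in the lines relative to *Ctsl*, *Ctsb* lower relative to *Lamp2*, and *Ctsd* lower relative to *Lamp2*. These pairs were picked after the values were seen and are a description. The ratio of *Ctsl* to *Ctsb* was 0.356, 0.348 and 0.332 in WT primary clones 3, 4 and 5 and 0.948, 1.57 and 0.587 in the lines. The Prkd3-/- ratio was 0.344, 0.432 and 0.378 in primary clones 13, 14 and 15 and 1.29, 0.540, 0.545 and 0.521 in lines 13, 13a, 14 and 15. Each of the 7 lines was thus above each of the 6 primary clones. Against all 18341 other genes compared, the ratio to *Ctsl* was separate in both genotypes for 1.55%, to *Ctsb* for 2.72%, to *Ctsd* for 2.26% and to *Lamp2* for 1.86%, and single genes were so for 3.47% of 18342. Primary clone 13, with a macrophage-marker sum of 194 CPM, had a ratio of 0.344, and the WT primary clones, with sums from 1851 to 1924 CPM, had 0.332 to 0.356. Lines 13a, 14 and 15, with sums of 432, 20.6 and 27.6 CPM, had 0.540, 0.545 and 0.521, while line 13, with 22.2 CPM, had 1.29. WT lines 3, 4 and 5 had 0.948, 1.57 and 0.587 at sums of 111, 71.4 and 173 CPM. In WT the sums of lines and primary clones do not overlap, and in Prkd3-/- MEFs they overlap only through primary clone 13 and line 13a. The part of the macrophage markers in this ratio was not tested.

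**Figure D4:**
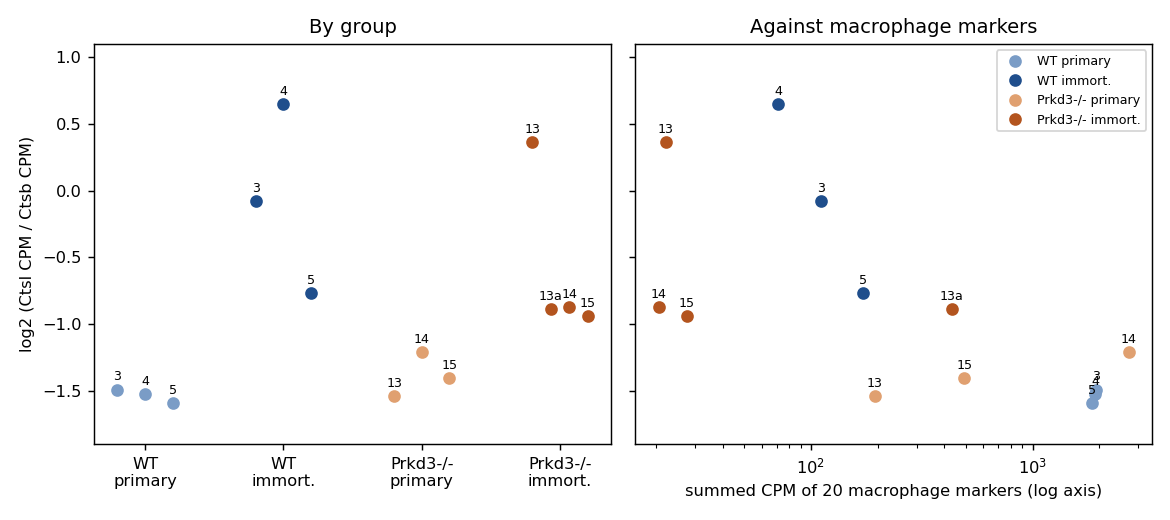
Log2 of the ratio of *Ctsl* to *Ctsb* CPM in each library, by group (left) and against the summed CPM of 20 macrophage markers on a log axis (right). Points are libraries with their clone or line number. The 7 lines lie at −0.94 or above and the 6 primary libraries at −1.21 or below, and the marker sums of the states overlap only for primary clone 13 and line 13a.

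For comparison with other genes of the compartment, 7 lists that hold 181 genes in all, the 9 members among them, were described by the same fits. Of the list of cathepsins and other proteases, 2 of 17 tested genes in WT were called, both lower in the lines (1.76% of all tested genes were called lower), and the list's median Log2FC was −0.39. They were *Ctss*, a cathepsin of antigen-presenting cells, at 57.7 ± 2.02 CPM in primary MEFs and 2.29 ± 0.654 CPM in lines (Log2FC −4.65, standard error 0.24, adjusted p = 0.000616, edgeR), and *Ctse*, a nonlysosomal aspartic protease of immune and gastric cells, at 1.29 ± 0.180 CPM in primary MEFs and 3 counts or fewer in each line (adjusted p = 0.00262, edgeR). Of the membrane proteins 1 of 33 was called lower, the macrophage glycoprotein *Cd68*, at 66.7 ± 0.499 CPM in primary MEFs and 3.01 ± 0.366 CPM in lines (Log2FC −4.47, standard error 0.13, adjusted p = 0.000254, edgeR). With the clone number as a block, the adjusted p was 0.0185 for *Ctss*, 0.0457 for *Ctse* and 0.0184 for *Cd68*, so no gene of the lists was called, as no gene was over the whole table. In the joint fit of all libraries it was 0.441 for *Ctss* and 0.198 for *Cd68*, and in DESeq2 all 3 genes were called. Over all genes, edgeR called 361 genes without the block, of which 349 were lower, and 0 with it.

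All 20 macrophage markers had a negative Log2FC in WT as well, with a median of −4.26 and 13 called lower. So did the 4 endothelial markers tested, with a median of −3.81 and 1 called lower. The marker lists were chosen with earlier results of these data known. The paper reports *Csf1r*, *Tyrobp* and *C1qa* as downregulated in the same WT libraries, so these counts are a description. Of 3 epithelial markers tested, 2 were negative and 0 called, with a median of −2.43. The part of these cell types in the calls of *Ctss*, *Ctse* and *Cd68* was not tested. Among Prkd3-/- cultures, *Ctss* was at 10.6, 121 and 18.3 CPM in primary clones 13, 14 and 15 and at 0, 31.7, 0.114 and 0.637 CPM in lines 13, 13a, 14 and 15, which follows the order of the macrophage sums among the primary clones. *Cd68* was at 12.8, 86.9 and 23.6 CPM in those clones and 1.44, 32.0, 0.925 and 1.64 CPM in those lines. Neither was called, nor was any other gene of the 7 lists there by edgeR (DESeq2 called 1). *Ctse* had 0 counts in each of those primary clones, clone 14 included, and 1 count or none in each of those lines. It was not among the genes tested there, while the WT primary clones held 67 to 142 counts of it.

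The other lists had 0 genes called by edgeR in WT, while DESeq2 called *Acp5*, *Atp6v0d2* and *Tfec* in them as lower. Glycosidases, sulfatases and other hydrolases (39 tested) had a median Log2FC of −0.12, vacuolar ATPase subunits (22 tested) 0.03, the MiT/TFE factors and their nutrient-sensing regulators (24 tested) −0.03, genes of mannose 6-phosphate tagging and sorting (16 tested) −0.10, and autophagy genes (25 tested) 0.14, against 0.04 over all tested genes. In autophagy, 20 of 25 values were positive, which is a count and not a test. The largest |Log2FC| of each of these lists in WT belonged to *Acp5*, the tartrate-resistant acid phosphatase of osteoclasts and macrophages (−4.18, adjusted p = 0.0527), *Atp6v0d2*, an ATPase subunit of osteoclasts (−2.67, adjusted p = 0.0230), *Tfec*, a macrophage relative of *Tfeb* (−4.59, adjusted p = 0.0197, with 4 counts or fewer in each line), *Gnptab*, which makes the mannose 6-phosphate tag (1.06, adjusted p = 0.249), and *Optn*, an autophagy receptor (0.70, adjusted p = 0.139), all by edgeR. Of the close relatives of *Tfeb*, *Tfe3* had a Log2FC of 0.08 (adjusted p = 0.626, edgeR) and *Mitf* of −0.69 (adjusted p = 0.213, edgeR).

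The Prkd3-/- median Log2FC was −0.64 for proteases (16 tested), −0.06 for other hydrolases, 0.03 for membrane proteins, 0.16 for ATPase subunits, −0.01 for the MiT/TFE list, 0.11 for sorting genes and 0.11 for autophagy genes, against 0.07 over all tested genes. The genes with the largest |Log2FC| there were *Ctsc* (−2.77, adjusted p = 0.691), *Acp5* (16.1 to 29.1 CPM in primary clones and 0 to 0.325 CPM in lines, adjusted p = 0.296), *Laptm5* (−2.84, adjusted p = 0.842), *Atp6v0a4* (2.23, adjusted p = 0.733), *Tfec* (adjusted p = 0.669), the mannose 6-phosphate receptor *Igf2r* (−0.88, adjusted p = 0.463) and *Optn* (0.59, adjusted p = 0.847), by edgeR. None of these passed edgeR's test, while DESeq2 called *Acp5* as lower in the lines (adjusted p = 3.18e-13).

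**Figure D5:**
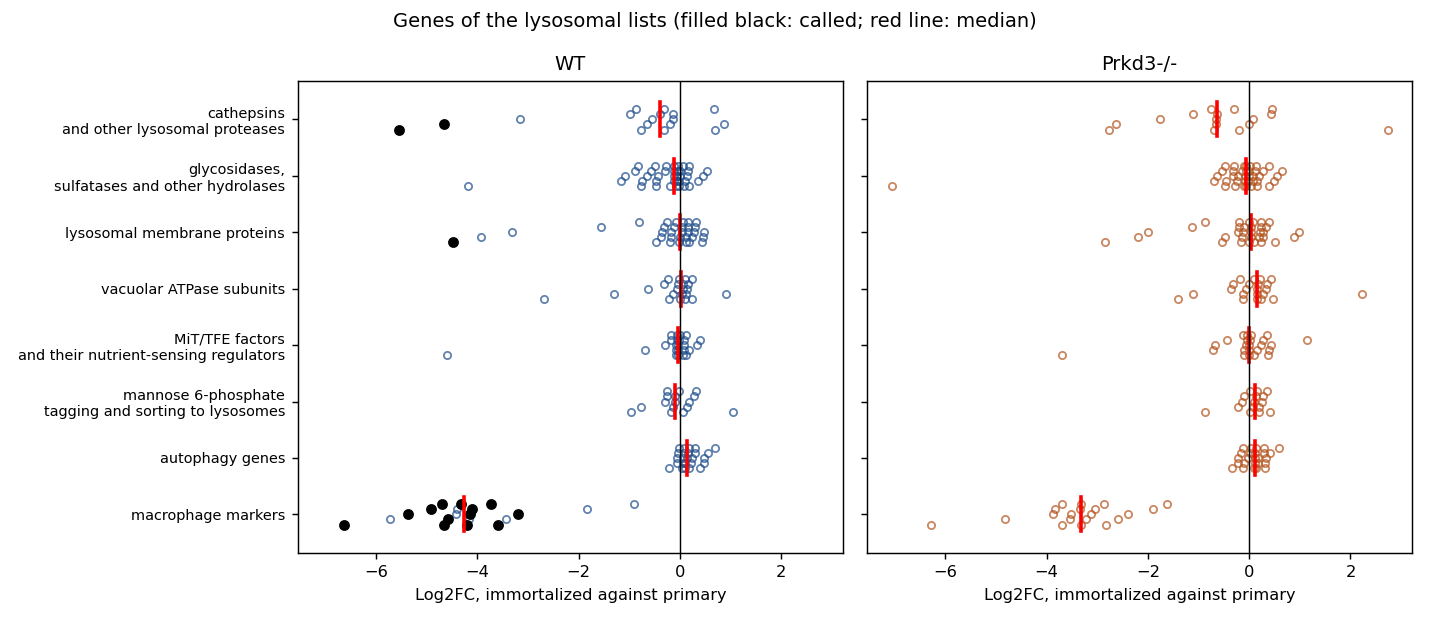
Log2FC, immortalized against primary, of each tested gene of the 7 lysosomal lists and of the macrophage markers (bottom row), in WT (left) and Prkd3-/- MEFs (right). Open circles are genes that were not called, black circles genes called by edgeR, and red bars list medians. The medians of the lysosomal lists lie between −0.64 and 0.16, and those of the macrophage markers at −4.26 and −3.32.

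The genes whose profile was most like that of each member were found by the root mean square difference over the 13 libraries, after each gene's mean within a genotype was subtracted from its log2 CPM, among 19311 genes. For *Glb1* these were *Zc3h6* (0.0872), *Zfp738* (0.100) and *Mtmr3* (0.101), none of them of the lysosome. For *Hexa* they were *Tmem202* (0.111), which shares 12.8% of the exon bases of *Hexa*, then *Ctsa* (0.177) and *Neu1* (0.178), which encode lysosomal enzymes that form a complex with β-galactosidase. For *Lamp1* they were *Grtp1* (0.0493), which overlaps 9.31% of its exon bases, then *Tmem192* (0.123) and *Mfsd1* (0.124), both lysosomal membrane proteins. For *Ctsd* they were the overlapping *Gm49369* (0.0291), *4930556M19Rik* (0.261) and *Pld3* (0.287), a lysosomal exonuclease, and for *Ctsz* they were *Gusb* (0.257), the lysosomal β-glucuronidase, *Cyren* (0.258) and *Tmem140* (0.265). The values for the 9 members are descriptive, since all genes of a library share its depth and scaling.

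For *Ctsb* the nearest genes were *Spry2* (0.247), *Rnf213* (0.293) and *Aldoart2* (0.294), for *Ctsl* *Pak1* (0.259), *Slc39a6* (0.282) and *Epb41l4aos* (0.283), for *Lamp2* *Hddc3* (0.142), *Man2a2* (0.160) and *1110012L19Rik* (0.170), and for *Tfeb* *Echdc2* (0.193), *Ubtd2* (0.205) and *Trp53i13* (0.226). Within the 9 genes, *Hexa* and *Lamp2* were nearest to each other (0.248), as were *Ctsb* and *Ctsd* (0.304), and *Lamp1* was closest to *Lamp2* (0.250). The nearest member to *Tfeb* was *Glb1*, at 0.527, against a median of 0.624 between *Tfeb* and all genes compared. Such a difference depends on the size of each gene's changes as well as their direction. It therefore does not show whether the level of *Tfeb* transcript followed that of the lysosomal genes.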

How the data were processed

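Poly-A RNA of 13 MEF cultures was measured, and groups and clone numbers were taken from the sample titles. Per the paper's methods, the labels and the header of the WT table, the authors checked the reads (FastQC 0.12.0), aligned pairs to mm10 (STAR 2.7.10a), converted the alignments (SAMtools 1.18) and assigned pairs to genes of the Ensembl GRCm38 annotation (featureCounts in Subread 2.0.6), without regard to strand and with a pair assigned to every gene it overlapped. The steps behind the Prkd3-/- table are not given in the sources used here, but it lists the same genes and lengths. The authors deposited raw counts per gene, without normalization, in 1 table per genotype. Genes with shared exons therefore hold some of each other's pairs.

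From these counts, each genotype was fitted alone with edgeR 4.0.16 in R 4.3.3 (TMM normalization, its default low-count filter, a robust quasi-likelihood test, and Benjamini-Hochberg adjustment over all tested genes), and genes were called with the cut-offs of the paper, adjusted p under 0.01 and |Log2FC| no smaller than 1. Standard errors were obtained from each Log2FC and its F statistic (|Log2FC| over the root of F), and intervals from the degrees of freedom of the fit. Alternatives were DESeq2 1.42.0, its size factors in edgeR, library size alone, other filters, no robust option, limma 3.58.1 weighting each state, a joint fit of the 13 libraries, the clone number as a block, each library left out, lines 13 and 13a summed, and other thresholds. A fit without primary clone 14 and line 13a was added after the values were seen. Log2 CPM used a prior count of 1, and intervals and floors cover counting error and the spread between libraries only, since PCR copies are not independent molecules. The members, the 7 gene lists and the 4 marker lists were chosen with earlier results of these data known. Named genes are the members, in each list and genotype up to 2 called genes with the smallest p in each direction or else the gene with the largest |Log2FC|, and the 3 genes most like each member. *Tfe3*, *Mitf* and *Dcn* were added as relatives or markers.

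Primary cultures and lines are paired by clone number in the titles. The correlation of their deviations from the group means was −0.0376, 0.038 and −0.0489 for WT clones 3, 4 and 5, and 0.156, −0.301, 0.0944 and 0.035 for lines 13, 13a, 14 and 15. The fits were tested on simulated counts. Sequences of proteins and the promoter of *Ctsb* were not analysed here.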

Additional observations from a re-analysis of the deposited data

How the results depend on the processing

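With 3 or 4 cultures per group and wide spread among the lines, the WT intervals of *Ctsb*, *Ctsd*, *Ctsl*, *Ctsz* and *Lamp2* and most Prkd3-/- intervals reach beyond a |Log2FC| of 1, so these data leave changes of that size possible. Each of the 9 genes was far above the counting floor. None of them was called in WT or Prkd3-/- MEFs under any alternative but the WT fit without line 5, so the number called when a library was left out ran from 0 to 1. The replicate block changed no other call of a member.

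Over all WT genes, the 361 calls became 1361 with DESeq2, 0 in a joint fit of all libraries, 157 with at least 10 counts in every library, 184 with limma, 0 with the replicate block, 1045 at an adjusted p under 0.05 and 868 at that p with a |Log2FC| of at least 1, and 48 to 743 with a library left out. The 3 WT calls in the 7 lists became 9 with DESeq2, 0 in the joint fit, 0 with the block, 12 and 8 at the looser thresholds, and 2 to 8 with a library left out. In Prkd3-/- MEFs, DESeq2 called 190 genes over all and 1 in the lists, and the joint fit called 1. The causes were not tested, beyond the looser threshold itself.

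The sign of a Log2FC near 0 changed in some settings. In WT, *Lamp1* was at −0.10 with library size alone and −0.000152 with the replicate block. In Prkd3-/- MEFs, *Glb1* was at −0.00164 with at least 10 counts in every library, −0.00848 with limma and −0.010 without clone 14 and line 13a, *Ctsl* at −0.11 and *Tfeb* at 0.017 with lines 13 and 13a summed, and *Hexa* at 0.090 with the block and 0.047 without clone 14 and line 13a. For the difference between genotypes, *Lamp2* was at 0.058 with library size alone, 0.036 with lines summed, 0.11 with the block and 0.048 without clone 14 and line 13a, *Ctsb* at −0.039 with lines summed, −0.030 without a filter and −0.014 without clone 14 and line 13a, and *Tfeb* at −0.037 with the block.

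With a library left out, the Log2FC in WT ran from −0.068 to 0.011 for *Glb1*, −0.84 to 0.011 for *Ctsd*, −0.35 to 0.16 for *Hexa*, −0.16 to 0.22 for *Lamp1* and −0.070 to 0.56 for *Lamp2*. In Prkd3-/- MEFs it ran from −0.079 to 0.18 for *Glb1*, −0.20 to 0.60 for *Ctsl*, −0.40 to 0.42 for *Hexa*, −0.011 to 0.44 for *Lamp1* and −0.55 to 0.21 for *Tfeb*. The difference between genotypes ran from −0.051 to 0.20 for *Glb1*, −0.41 to 0.57 for *Ctsb*, −0.91 to 0.15 for *Ctsd*, −0.26 to 0.54 for *Hexa*, −0.022 to 0.41 for *Lamp1*, −0.35 to 0.28 for *Lamp2* and −0.37 to 0.39 for *Tfeb*. The sign was kept in each of these fits for WT *Ctsb* (−1.23 to −0.42), *Ctsl* (0.58 to 0.88), *Ctsz* (−1.03 to −0.41) and *Tfeb* (−0.36 to −0.058), and for Prkd3-/- *Ctsb* (−1.08 to −0.24), *Ctsd* (−1.24 to −0.42), *Ctsz* (−0.32 to −0.062) and *Lamp2* (0.046 to 0.49).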
